A study of Mus musculus with 16 samples.

Results

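Cyp2b9, Cyp2b10, Cyp2b13, Cyp2a4, Cyp2a5, Cyp2a12 and Cyp2a22 are the Cyp2b and Cyp2a cytochrome P450 genes of mouse liver described here across 4 groups of liver tissue. They were taken by name from the array: each needed a row whose probe annotation gave its symbol alone, and where a gene had several such rows the one with the highest mean was used. All 7 of 7 were found, among 22180 genes with such a row, and all 7 passed the filter on low values that left 13555 genes for testing. Each stood above the median of the array on at least 4 of the 16 arrays: Cyp2b9 on 14, Cyp2b13 on 12, Cyp2b10 on 11, and the Cyp2a genes on 16.

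Cytochrome P450 enzymes of these subfamilies sit in the endoplasmic reticulum and hydroxylate drugs, plant and tobacco compounds, and steroids. In mouse liver Cyp2b10 is the standard readout of the constitutive androstane receptor (CAR, gene Nr1i3), the nuclear receptor that phenobarbital activates. Cyp2b9, Cyp2b13 and Cyp2a4, a testosterone hydroxylase, are known for higher expression in females, a bias set by the pattern of growth hormone release. Cyp2a5 is the coumarin hydroxylase of the mouse, and Cyp2a4 and Cyp2a5 are known targets of DBP, an output factor of the circadian clock. Cyp2a12 hydroxylates testosterone and secondary bile acids, and Cyp2a22 is their neighbour in the gene cluster.

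The samples came from 8 mice, C57BL/6J in background and 18 months old at death, with 1 tumour and 1 non-tumour sample of each. The 4 groups, with 4 arrays each, were MYC/REG3A tumour, MYC/REG3A non-tumour liver, MYC tumour and MYC non-tumour liver. All 8 mice carried a liver c-MYC oncogene driven by woodchuck hepatitis virus sequences (labelled MYC+/+), so no group lacks it; the MYC/REG3A mice carried a REG3A transgene too (REG3A+/+), whose promoter is not given in the sources used here, and the MYC mice did not (REG3A-/-). The sex of the mice and the hour of death are not given in the sources used here either. Dissected tissue is a mixture of cells, so that fewer cells of a type and less RNA per cell cannot be told apart.

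Values are log2 RMA levels, on which 1 unit is a doubling; they compare arrays for 1 gene, not genes with each other. The lower quartile of all rows was 3.71 to 3.77 by array and serves here as a mark of very low signal. Albumin (Alb) averaged 13.46 in MYC/REG3A tumours, 13.55 in MYC/REG3A non-tumour liver, 13.36 in MYC tumours and 13.52 in MYC non-tumour liver, high in every group. The mouse Reg3a row stayed between 2.99 and 3.47 and the Myc row between 6.84 and 9.37 over the 16 arrays; neither is known to read the transgene, so neither checks a label. On the first principal component, which held 49.2% of the variance, MYC/REG3A tumours 2 and 4 were at -4.21 and 2.55, whereas the other 6 tumours lay between 32.7 and 42.3 and the non-tumour livers between -31.0 and -26.4. Results for the 7 genes and the main gene lists in MYC/REG3A tumours are therefore given with and without these 2 mice.

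The proximal promoters are shown because the genes fall into near-copies. Over the 300 bases around the annotated start in RefSeq (GRCm38.p6), Cyp2b9 and Cyp2b13 were identical at 298 of 300 aligned bases, and Cyp2a4 and Cyp2a5 at 294 of 299. Cyp2a22 and Cyp2a12 matched at 261 of 289, and Cyp2b9 and Cyp2b10 at 223 of 289, or 77.2%. The 120 bases before the start of 5 genes read as follows, all on the plus strand of chromosome 7, 5′ to 3′, at chr7:26173289-26173408 for Cyp2b9, chr7:26061375-26061494 for Cyp2b13, chr7:25897538-25897657 for Cyp2b10, chr7:26307072-26307191 for Cyp2a4 and chr7:26835219-26835338 for Cyp2a5. Capitals mark a match to TTGNATAA.
Cyp2b9: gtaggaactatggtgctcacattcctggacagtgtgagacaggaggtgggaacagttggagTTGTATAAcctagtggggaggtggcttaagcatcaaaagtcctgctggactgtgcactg
Cyp2b13: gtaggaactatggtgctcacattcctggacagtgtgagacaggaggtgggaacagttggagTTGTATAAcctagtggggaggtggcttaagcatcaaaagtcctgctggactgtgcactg
Cyp2b10: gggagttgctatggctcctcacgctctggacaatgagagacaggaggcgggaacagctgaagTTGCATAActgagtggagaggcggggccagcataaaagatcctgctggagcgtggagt
Cyp2a4: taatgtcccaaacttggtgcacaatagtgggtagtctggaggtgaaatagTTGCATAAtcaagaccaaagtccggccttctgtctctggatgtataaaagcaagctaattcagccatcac
Cyp2a5: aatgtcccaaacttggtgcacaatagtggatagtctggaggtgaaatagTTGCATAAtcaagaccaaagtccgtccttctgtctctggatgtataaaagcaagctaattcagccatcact
The octamer TTGNATAA, searched on both strands after the sequences had been read, was found in these 5 of the 7 genes and in 2.81% of the 32851 promoters of the same length. It begins at -59 in Cyp2b9 and Cyp2b13, at -58 in Cyp2b10, at -70 in Cyp2a4 and at -71 in Cyp2a5. Cyp2b10, Cyp2a4 and Cyp2a5 carry the form TTGCATAA, which 0.743% of promoters hold and which resembles the known sites of C/EBP factors, whereas Cyp2b9 and Cyp2b13 carry TTGTATAA. The palindrome TTCNNNGAA, known as the core of STAT5 sites, was in 0 of the 7 windows and in 8.3% of all promoters. TATAAA was in Cyp2a4, Cyp2a5, Cyp2a22 and Cyp2a12 and in 13.6% of all promoters. These are matches of letters and say nothing about binding in these livers. Whether probes of 1 gene of a near-identical pair also read its partner was not tested.

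In MYC tumours, 5 of the 7 genes were lower than in the non-tumour liver of the same mice: Cyp2b9, Cyp2b13, Cyp2a4, Cyp2a12 and Cyp2a22, with changes of -4.56 to -1.67 log2 units (limma with mouse as a block, adjusted p 0.00202 to 0.0294, lower in 4 of 4 mice each). Cyp2a5 and Cyp2b10 did not pass the test. Of all tested genes, 15.8% were called lower in this comparison and 17.4% higher, 33.2% in all. The median change of the 7 genes was -2.51, beside -0.03 over all tested genes.

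Cyp2b9 had the largest mean change of the 7 and the most uneven one, although it cannot be ranked against Cyp2b13. Its levels in the tumours of MYC mice 1 to 4 were 8.41, 11.003, 7.70 and 3.24, against 12.20, 12.33, 11.87 and 12.20 in their non-tumour livers. The groups did not overlap, and the tumours were far apart (SD 3.23) while the livers were close together (SD 0.20). The change was -4.56 ± 1.37 (SE, n = 4 mice), an average 23.6-fold difference, with an adjusted p of 0.0294 by limma. Tumour 4 was under the lowest of the arrays' lower quartiles, so its true level may be lower than the array could show. Without MYC mouse 1, 3 or 4 the call was lost (limma adjusted p 0.0634, 0.0688 and 0.133).

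Cyp2b13, the near-copy of Cyp2b9, fell by 4.28 log2 units (SE 0.904, limma adjusted p 0.0064). Its tumour levels were 4.24, 8.10, 4.26 and 3.90, against 10.74, 9.23, 8.56 and 9.08 in non-tumour liver. Tumour 2 kept the highest level of the 4 for Cyp2b9 and for Cyp2b13. Tumours 1, 3 and 4 were close to the lower quartile for Cyp2b13, so their falls may be understated and cannot be ranked against those of Cyp2b9. As measured, Cyp2b13 fell more than Cyp2b9 in mice 1 (-6.49 against -3.79) and 3 (-4.31 against -4.17), and less in mice 2 and 4.

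Cyp2b10 went the other way in most MYC mice without passing the test. Its tumour levels were 7.41, 9.001, 7.53 and 3.71, against 5.67, 7.81, 4.65 and 4.45 in non-tumour liver. Mice 1, 2 and 3 had more in the tumour, by 1.75, 1.19 and 2.89, and mouse 4 less, by -0.75. Both values of mouse 4 and the liver of mouse 3 were under the array medians (4.90 to 4.97). The tumour of mouse 4 was at the lower quartile, so the size of its fall is uncertain. The mean difference was 1.27 with a 95% interval of -0.24 to 2.78 (limma adjusted p 0.176), so a rise of several-fold and a slight fall both remain possible.

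Among the Cyp2a genes, Cyp2a4 fell by 2.91 log2 units (SE 0.586, adjusted p 0.00521 by limma). Its tumour levels were 8.17, 8.84, 9.09 and 6.80, against 11.88, 11.73, 10.63 and 10.29 in non-tumour liver, without overlap. Cyp2a12 fell by 2.51 (SE 0.397, limma adjusted p 0.00202), with tumour levels of 10.21, 10.94, 9.55 and 9.08, against 12.60, 12.46, 12.39 and 12.39 in non-tumour liver. The 4 non-tumour livers were almost alike for Cyp2a12 (SD 0.0981), and each tumour lay well under them.

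Cyp2a22 had 6.63, 6.68, 6.68 and 6.15 in MYC tumours, against 8.79, 8.97, 7.51 and 7.53 in non-tumour liver. The tumours were close together and below each liver, with a change of -1.67 ± 0.275 (SE, n = 4 mice, limma adjusted p 0.00236). Cyp2a5 had 7.31, 7.11, 8.13 and 5.68 in MYC tumours, against 9.18, 9.19, 7.29 and 7.64 in non-tumour liver. Mouse 3 alone had more Cyp2a5 in its tumour, by 0.84, and the other 3 had less, by -2.08 to -1.87. The mean of -1.27 had a 95% interval of -2.54 to 0.01 and did not pass the test (adjusted p 0.114 by limma), although its promoter is nearly that of Cyp2a4; without mouse 3 it was -1.97 (adjusted p 0.0231).

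**Figure D1:**
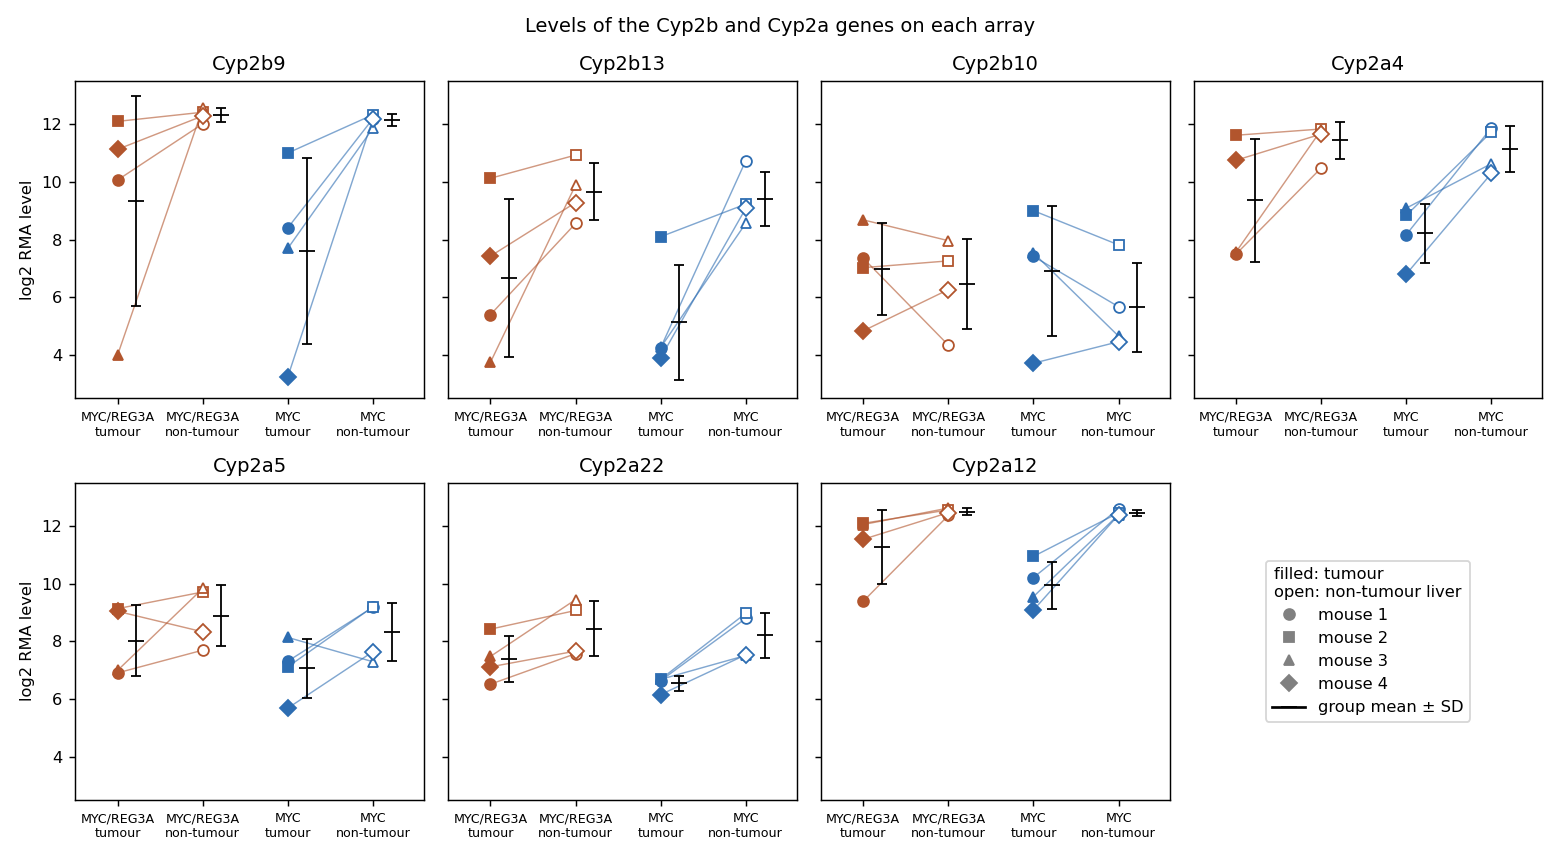
Log2 RMA level (vertical axis) of each gene in the 4 groups, with tumour (filled) and non-tumour liver (open) of 1 mouse joined by a line, and the group mean ± SD (n = 4) beside the points. Cyp2b9 and Cyp2a12 are tight in non-tumour liver (SD 0.0981 to 0.230) and spread out in tumours (SD 0.811 to 3.65), and Cyp2b10 is spread in all 4 groups.

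In MYC/REG3A tumours, Cyp2a4 and Cyp2a22 were lower than in the paired non-tumour liver, 2 of the 7 genes, beside 4.88% of all tested genes lower, 7.58% higher and 12.5% in all. The other 5 genes did not pass the test, and the median change was -1.23, beside -0.02 over all tested genes. Cyp2b9, Cyp2b13 and Cyp2a12 were nevertheless lower in 4 of 4 mice. The calls are fragile: both were lost without mouse as a block (adjusted p 0.103 for Cyp2a4 and 0.155 for Cyp2a22 by limma), and without any 1 of MYC/REG3A mice 1, 3 or 4 no gene of the 7 was called; without MYC mouse 1 or 4, Cyp2a22 alone was.

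Cyp2b9 had 10.07, 12.10, 4.00 and 11.13 in the tumours of MYC/REG3A mice 1 to 4, against 12.02, 12.42, 12.56 and 12.29 in non-tumour liver. Tumour 3 lost almost all signal while tumour 2 stayed within the range of the livers. The mean change of -2.996 had a 95% interval of -6.06 to 0.07 (limma adjusted p 0.175). Cyp2b13 had 5.39, 10.13, 3.74 and 7.42 in tumours, against 8.56, 10.93, 9.89 and 9.28 in non-tumour liver, a change of -2.99 with an interval of -5.02 to -0.97 (adjusted p 0.057 by limma). It passed without MYC mouse 2, which enters through the shared spread (0.0307), or without MYC/REG3A mouse 2 (0.0435).

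Cyp2b10 had 7.35, 7.02, 8.68 and 4.83 in MYC/REG3A tumours, against 4.33, 7.26, 7.96 and 6.26 in non-tumour liver. It was higher in the tumours of mice 1 and 3 and lower in those of mice 2 and 4, with a mean of 0.52 and a 95% interval of -0.99 to 2.03 (limma adjusted p 0.65). The liver of mouse 1 and the tumour of mouse 4 were under the array median.

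Cyp2a4 fell by 2.09 log2 units in MYC/REG3A tumours (SE 0.586, limma adjusted p 0.0456). It had 7.50, 11.62, 7.57 and 10.75 in tumours, against 10.48, 11.84, 11.80 and 11.66 in non-tumour liver. Tumours 1 and 3 were low, and tumours 2 and 4 lay within the range of the livers. Cyp2a22 had 6.51, 8.42, 7.47 and 7.11 in tumours, against 7.57, 9.07, 9.44 and 7.66 in non-tumour liver; every mouse had less in its tumour although the groups overlapped, and the change was -1.06 ± 0.275 (SE, n = 4 mice, adjusted p 0.0358 by limma). Cyp2a12 had 9.39, 12.09, 12.05 and 11.54 in tumours, against 12.36, 12.56, 12.62 and 12.46 in non-tumour liver. These did not overlap, yet most of the mean change of -1.23 came from mouse 1, and it did not pass the test (limma adjusted p 0.0684). Cyp2a5 had 6.90, 9.13, 6.99 and 9.04 in tumours, against 7.69, 9.71, 9.83 and 8.33 in non-tumour liver, a change of -0.87 with an interval of -2.15 to 0.40.

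Without MYC/REG3A mice 2 and 4, whose tumours stood apart, the remaining mice 1 and 3 gave larger changes: -5.25 for Cyp2b9 (limma adjusted p 0.116), -4.66 for Cyp2b13 (0.044), -3.61 for Cyp2a4 (0.00931), -1.77 for Cyp2a12 (0.0899), -1.52 for Cyp2a22 (0.043), -1.81 for Cyp2a5 (0.161) and 1.87 for Cyp2b10 (0.178). Cyp2b13, Cyp2a4 and Cyp2a22 were then called, 3 of the 7, beside 10% of all tested genes in either direction. Over all tested genes the SD of the change within a mouse was 0.336 in mouse 2 and 0.429 in mouse 4, beside 0.624 to 0.729 in the other 6 mice.

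**Figure D2:**
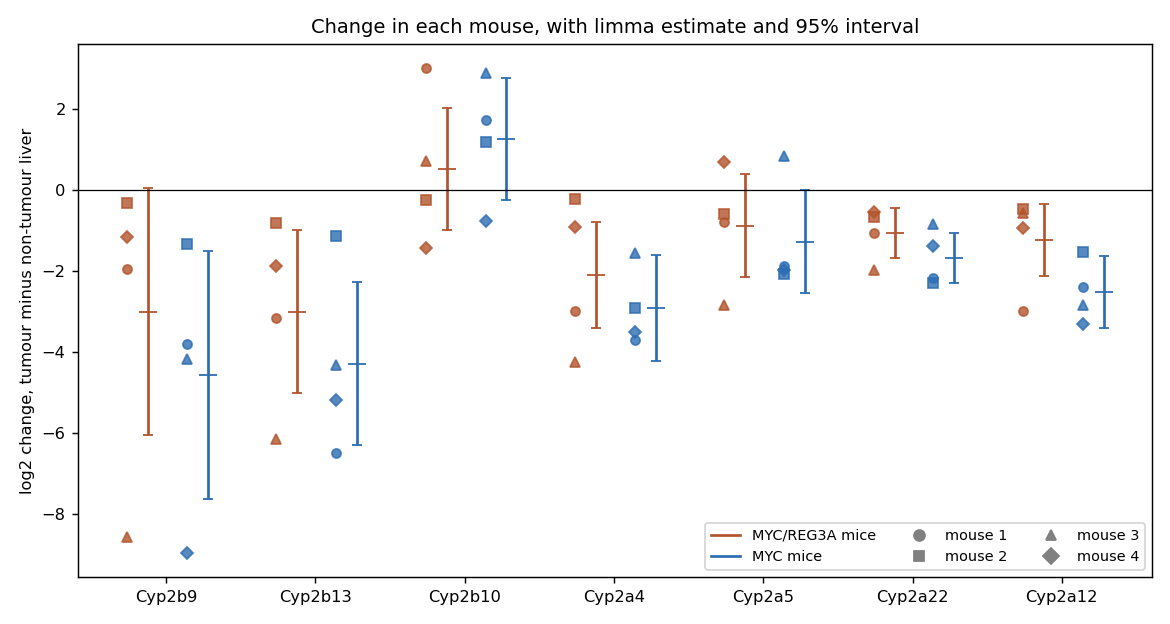
Log2 change, tumour minus non-tumour liver (vertical axis), in each mouse (symbols) with the limma estimate and its 95% interval (bars), for MYC/REG3A mice and MYC mice. All 8 mice lie below 0 for Cyp2b9, Cyp2b13, Cyp2a4, Cyp2a22 and Cyp2a12, whereas Cyp2b10 is higher in the tumour in 5 of 8 mice.

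Over both genotypes, 5 of the 7 genes were lower in tumours, each in 8 of 8 mice, beside 21.4% of all tested genes lower, 21.5% higher and 43% in all. These averages reuse the mice of the 2 comparisons above. The changes by limma were -3.78 for Cyp2b9 (adjusted p 0.0114), -3.64 for Cyp2b13 (0.00177), -2.50 for Cyp2a4 (0.00134), -1.87 for Cyp2a12 (0.000825) and -1.36 for Cyp2a22 (0.000654). Cyp2a5 was lower in 6 of 8 mice, by -1.07 on average, and missed the threshold (adjusted p 0.0557 by limma). It passed when each array was centred on its median (0.0462) and after cyclic loess (0.0481), and also without MYC mouse 3 (0.0107) or MYC/REG3A mouse 4 (0.0272). Cyp2b10 was higher in 5 of 8 mice, by 0.89 with a 95% interval of -0.17 to 1.96. Without MYC/REG3A mice 2 and 4 all 7 were called, Cyp2b10 as higher (1.57, limma adjusted p 0.0393) and Cyp2a5 as lower (-1.54, adjusted p 0.0315), beside 35.5% of all tested genes in either direction.

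The same tumours stood at the ends of the range for most of the genes. The MYC tumour of mouse 4 was the lowest of the 8 tumours for 6 of the 7 genes, all but Cyp2b13, which was lowest in the MYC/REG3A tumour of mouse 3. The MYC/REG3A tumour of mouse 2 was the highest for 6 of the 7, all but Cyp2b10, which was highest in the MYC tumour of mouse 2. Over the 16 arrays, which include the tumour difference, Pearson's r was 0.88 between Cyp2b9 and Cyp2b13 and 0.88 between Cyp2a4 and Cyp2a5. Between Cyp2b10 and the other 6 genes it lay between -0.09 and 0.22. After each group's mean was taken off, r was 0.77, 0.88 and 0.18 to 0.59 for the same pairs. Without MYC/REG3A mice 2 and 4, over 12 arrays, these became 0.70, 0.93 and 0.49 to 0.88.

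No gene of the 7 differed between the genotypes by limma. In tumours, MYC/REG3A minus MYC, 0 of 7 were called at the adjusted threshold and 1 had an unadjusted p under 0.05, beside 0.0148% of all tested genes called lower, 0.00738% higher and 0.0221% in all. That gene was Cyp2a12, with 9.39 to 12.09 in MYC/REG3A tumours against 9.08 to 10.94 in MYC tumours, a difference of 1.32 with a 95% interval of 0.30 to 2.34 (limma adjusted p 0.384). Without MYC/REG3A mouse 1 that difference was 1.95 and was called (adjusted p 0.0227); without MYC/REG3A mice 2 and 4 it was 0.77 (adjusted p 0.942). The estimates of all 7 were above 0, the largest being 1.74 for Cyp2b9 with an interval of -1.51 to 4.98. Without mice 2 and 4 those of Cyp2b9, Cyp2b13, Cyp2a4 and Cyp2a5 turned to -0.55, -0.56, -0.69 and -0.11.

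In non-tumour liver, MYC/REG3A minus MYC, 0 of 7 were called and 0 had an unadjusted p under 0.05, beside 0% of all tested genes called. Differences lay between 0.04 for Cyp2a12 and 0.81 for Cyp2b10. The narrowest intervals were those of Cyp2a22 (-0.77 to 1.24) and Cyp2a12 (-0.98 to 1.06) and the widest that of Cyp2b9 (-3.07 to 3.42), because the fit shares 1 spread between tumours and livers. The change in tumours did not differ between the genotypes either: 0 of 7 were called, beside 0.00738% of all tested genes. Cyp2a12 alone had an unadjusted p under 0.05, its change being less negative in MYC/REG3A mice by 1.28 with an interval of 0.02 to 2.54 (limma adjusted p 0.873). With such intervals a difference of several-fold would not have been detectable for Cyp2b13, nor for Cyp2b9 in tumours or in its tumour change. In non-tumour liver the Cyp2b9 values were close together, at 12.02 to 12.56 in MYC/REG3A mice and 11.87 to 12.33 in MYC mice. Its interval there is wider than the spread of the livers. The 3 comparisons share arrays and are not independent of each other.

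**Figure D3:**
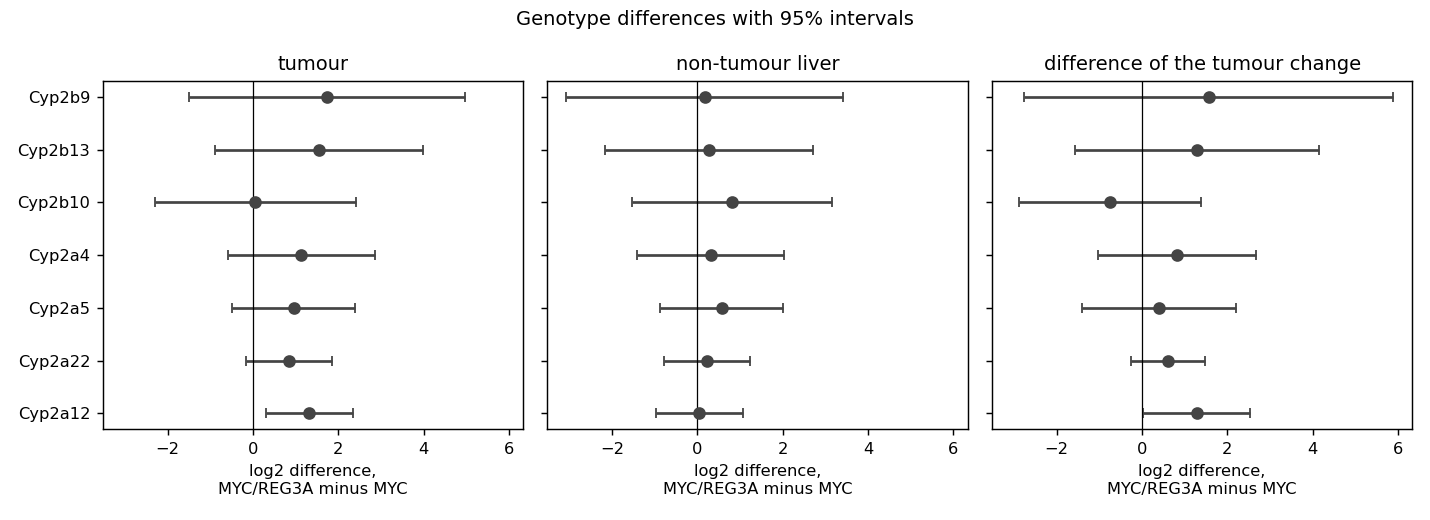
Log2 difference, MYC/REG3A minus MYC (horizontal axis), with 95% intervals, for the 7 genes in tumours, in non-tumour liver and for the difference of the tumour change. Except for Cyp2a12 in tumours (0.30 to 2.34) and for its tumour change (0.02 to 2.54), every interval spans 0.

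Among non-tumour livers most of the 7 genes had the same mice at the low end. For 6 of the 7, all but Cyp2b9, the 3 lowest of the 8 livers were MYC mice 3 and 4 and MYC/REG3A mouse 1. Cyp2b10 spanned 3.63 log2 units over the 8 livers, Cyp2a5 2.54, Cyp2b13 2.37, Cyp2a22 1.94 and Cyp2a4 1.58, whereas Cyp2b9 spanned 0.69 and Cyp2a12 0.26. Cyp2b9 and Cyp2a12 lay between 11.87 and 12.62 in these livers, beside array maxima of 13.55 to 13.68. Whether signal towards the top of the array narrowed their spans was not tested. The order of the livers was noticed in the data and was not tested either.

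The clock genes Dbp and Arntl had the same livers at the low and the high end. Dbp, which activates Cyp2a4 and Cyp2a5 in mouse liver as background knowledge, had 7.59, 9.78, 9.15 and 9.42 in the non-tumour livers of MYC/REG3A mice 1 to 4 and 8.68, 8.70, 8.14 and 8.04 in those of MYC mice 1 to 4. Arntl, the clock activator that runs opposite to Dbp, had 7.76, 5.31, 5.88 and 5.77 in the MYC/REG3A livers and 6.17, 6.22, 7.30 and 7.49 in the MYC livers. Among tumours, Arntl was highest in MYC mouse 4 (8.63) and MYC/REG3A mouse 1 (8.49). Dbp was lowest in the same tumours, at 6.83 and 6.72. The non-tumour livers of MYC mice 3 and 4 and MYC/REG3A mouse 1 were also the lowest for Nr1i3, Alas1 and Ccnd1, and narrowly for Onecut1. Ccnd1 and Onecut1 were the closest matches by r of Cyp2a5 and Cyp2a12, as given below, so their order is not a separate observation. Whether any of these genes follows the clock was not tested. For Nr1i2, Ghr and Hnf4a the lowest livers were not the same set.

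With the level of 5 clock genes (Dbp, Per3 and Ciart against Arntl and Npas2) as a covariate, chosen after seeing the data, 4 of the 7 were called lower in MYC tumours, beside 25% of all tested genes called in either direction. Cyp2b9 was not, with a change of -3.77 (limma adjusted p 0.0879). In MYC/REG3A tumours none of the 7 was called with that covariate (0 genes; Cyp2a22 -1.12, adjusted p 0.122), where 1.23% of all tested genes were. Mouse stayed as a block in this fit, so the covariate acted only through clock differences between the tumour and liver of a mouse. In MYC/REG3A mice 1 to 4 the clock level was -1.31, 4.13, 3.44 and 2.78 in tumours. In their livers it was -0.57, 4.43, 3.75 and 3.58, higher in each mouse. The fit thus does not cleanly separate the covariate from the tumour difference there. It does not address an hour of death that both samples of a mouse share. Whether the hour of death underlies the levels was not tested.

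**Figure D4:**
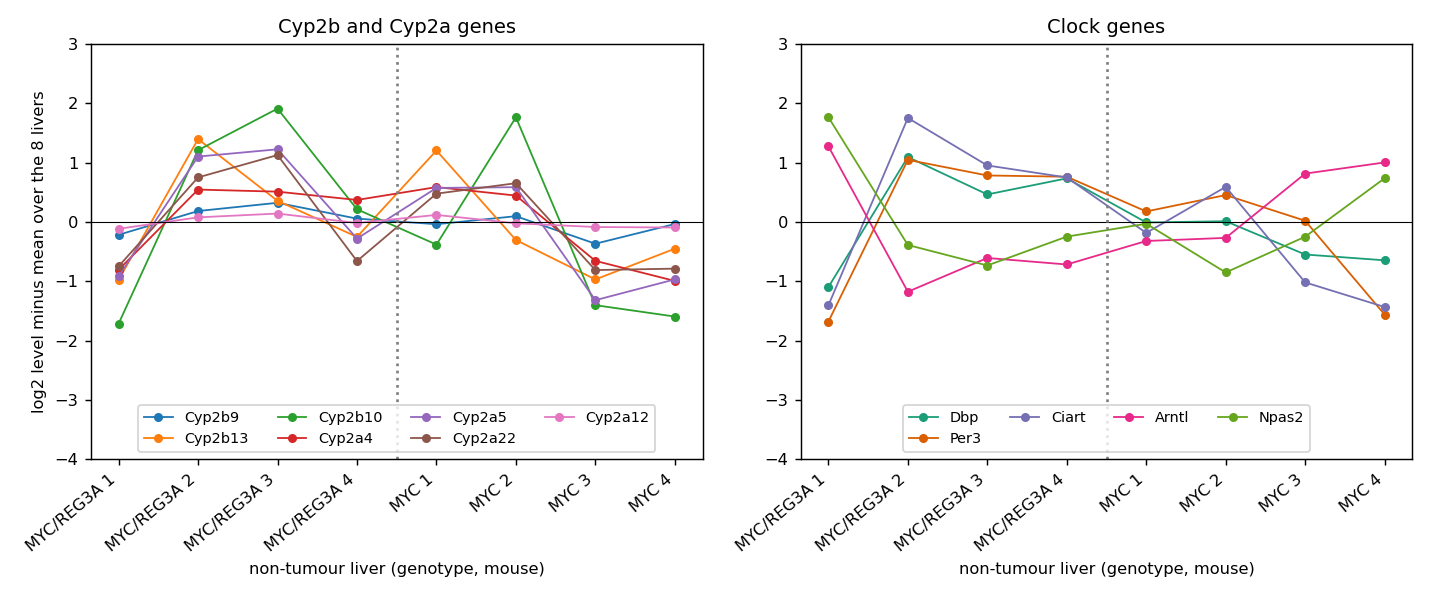
Log2 level minus the gene's mean over the 8 non-tumour livers (vertical axis) by liver (horizontal axis, MYC/REG3A mice 1 to 4, then MYC mice 1 to 4), for the 7 Cyp genes and for 5 clock genes. MYC/REG3A mouse 1, at Dbp 7.59 and Arntl 7.76, lies low for most of the 7 genes, as do MYC mice 3 and 4.

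Receptors known to induce Cyp2b genes such as Cyp2b10 moved in opposite directions in MYC tumours. Nr1i3 (CAR) averaged 9.74 ± 0.325 in MYC tumours and 10.75 ± 0.307 in MYC non-tumour liver (SD, n = 4 each), and fell by 1.01 (limma adjusted p 0.00274). In MYC/REG3A mice its change was -0.51 (adjusted p 0.0787). Nr1i2, the pregnane X receptor that also induces Cyp2b genes, rose by 0.62 in MYC tumours (limma adjusted p 0.0459) and had a change of 0.67 in MYC/REG3A tumours (adjusted p 0.0612). Of 7 tested genes in a list of these receptors and associated genes, 2 rose and 1 fell in MYC tumours, and 1 rose in MYC/REG3A tumours. The medians were 0.04 and 0.14. The gene that rose in MYC/REG3A tumours was Ppp1r16a (0.41, limma adjusted p 0.0375), which also rose in MYC tumours (0.38, adjusted p 0.0254). Of all tested genes, 17.4% rose and 15.8% fell in MYC tumours, and 7.58% rose and 4.88% fell in MYC/REG3A tumours. Neither this list nor those below were tested against these shares. Without MYC/REG3A mice 2 and 4 Nr1i2 had 1.09 in MYC/REG3A tumours and passed (limma adjusted p 0.03), and Nr1i3 had -0.68 (0.133).

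Of 25 other known targets of these receptors, 8 fell and 1 rose in MYC tumours and 1 fell in MYC/REG3A tumours, with medians of -0.40 and -0.05. Of all tested genes 15.8% fell in MYC tumours and 4.88% in MYC/REG3A tumours (4.41% without mice 2 and 4). Cyp2c37 fell by 2.32 in MYC tumours (limma adjusted p 0.00137), and Cyp2c29, another CAR target, fell by 1.80 (0.00176). Cyp1a2 fell by 2.70 (0.00452). Cyp3a13 was the gene called in MYC/REG3A tumours, at -0.85 (limma adjusted p 0.0102). Ephx1 had 0.70 there, higher in 4 of 4 mice, and Cyp3a11 had 1.18, higher in 3 of 4. Neither passed the test (limma adjusted p 0.0536 and 0.0642). Of these targets 3 fell and 1 rose there without mice 2 and 4. Alas1, the first enzyme of the haem synthesis that P450s need, had -0.31 in MYC tumours and -0.05 in MYC/REG3A tumours (adjusted p 0.234 and 0.904).

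The shares of all tested genes that fell were 15.8% in MYC and 4.88% in MYC/REG3A tumours (4.41% without mice 2 and 4). Those that rose were 17.4% and 7.58%. Of 21 other genes known for female-biased expression, like Cyp2b9, Cyp2b13 and Cyp2a4, 17 fell and 1 rose in MYC tumours. In MYC/REG3A tumours 10 fell, 1 rose and 10 did not pass the test, with list medians of -2.56 in MYC and -1.79 in MYC/REG3A tumours. Sult2a1, a bile acid and steroid sulfotransferase, fell by 4.89 in MYC tumours (limma adjusted p 0.000403), and the P450 gene Cyp3a44 fell by 4.59 (0.00061). Sult2a1 was under the lowest of the arrays' lower quartiles in 3 of the 8 tumours, so its fall may be understated. Lpl, lipoprotein lipase, was the one that rose in MYC/REG3A tumours, by 2.09 (adjusted p 0.00561 by limma). In MYC/REG3A tumours without mice 2 and 4, 10 of the 21 fell and 1 rose, with a median of -2.68. Of 16 male-biased genes, 6 fell and 3 rose in MYC tumours, and 5 fell and 1 rose in MYC/REG3A tumours, with medians of -0.23 and -0.01; without mice 2 and 4, 3 fell and 1 rose in MYC/REG3A tumours, with a median of -0.25. Selenbp2 rose by 1.92 and C8a fell by 2.34 in MYC tumours (limma adjusted p 0.00371 and 0.00411).

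Of 18 genes that set the sex bias of mouse liver or carry the growth hormone signal, 11 fell and 1 rose in MYC tumours, and 5 fell in MYC/REG3A tumours, with medians of -0.62 and -0.31. The shares of all tested genes that fell were 15.8% and 4.88% (4.41% in MYC/REG3A tumours without mice 2 and 4). Cux2, a female-biased repressor that belongs to the female-biased list as well, fell by 1.22 in MYC tumours (limma adjusted p 0.00126) and by 0.76 in MYC/REG3A tumours (0.0228). Onecut1 (HNF6), a factor known to activate female-biased Cyp2 genes, fell by 2.47 (0.000697) and by 0.99 (0.0471) in the same comparisons. Of the 18, 5 fell in MYC/REG3A tumours without mice 2 and 4, with a median of -0.47, and Cux2 and Onecut1 had -0.98 and -1.49 (limma adjusted p 0.0461 and 0.0408). Hnf4a, the hepatocyte factor, fell by 0.28 in MYC tumours (adjusted p 0.0472 by limma). Ghr, Stat5b and Bcl6, the growth hormone receptor, its signal carrier and a male-biased repressor, had changes of -0.23, 0.32 and 0.34 in MYC tumours and did not pass the test there. In MYC/REG3A tumours they had -0.25, -0.01 and 0.55, again without passing. Over both genotypes Bcl6 rose by 0.44 (limma adjusted p 0.0154, higher in 7 of 8 mice).

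In the cluster on chromosome 7 the order in RefSeq is Cyp2s1, Cyp2b10, Cyp2b13, Cyp2b9, Cyp2a4, Cyp2b23, Cyp2b19, Cyp2g1, Cyp2a5, Cyp2a22, Cyp2a12, Cyp2f2 and Cyp2t4. Cyp2f2, a lung and liver naphthalene hydroxylase, had 8.59 to 11.66 in MYC tumours against 11.58 to 12.16 in MYC non-tumour liver, and fell by 2.13 (limma adjusted p 0.00423). In MYC/REG3A tumours its change was -0.89 (limma adjusted p 0.171). Cyp2g1, an olfactory enzyme, had -0.56 in MYC tumours and -0.33 in MYC/REG3A tumours, neither of which passed the test (limma adjusted p 0.0702 and 0.325). Its average of -0.44 over both genotypes did (0.0368), but not without MYC/REG3A mice 2 and 4 (-0.48, adjusted p 0.11 by limma). Cyp2s1, at the other end, had a change of 0.06 over both genotypes. Cyp2b23, Cyp2b19 and Cyp2t4 were above the array median on 0 arrays and were not tested. Genes that fell, genes that did not pass the test and genes near the floor of the array thus lay side by side. Of 59 other tested P450 genes, 31 fell and 5 rose in MYC tumours, and 16 fell and 1 rose in MYC/REG3A tumours (20 and 1 without mice 2 and 4). The shares of all tested genes that fell were 15.8% and 4.88% (4.41% without mice 2 and 4).

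Among all tested genes other than the 7, those with the highest Pearson's r over the 16 arrays were as follows, a description over arrays that share mice and the tumour difference. Cyp2a12 was closest to Onecut1 (r = 0.97, and 0.91 after group means were taken off), then Ptprg and Cpq. Cyp2a4 was closest to Igfbp4, a binding protein of insulin-like growth factors (0.95), Ubr2 and Slc9a3r1. Cyp2a5 was closest to Ccnd1, which encodes cyclin D1 (0.94), Rab43 and Snx9, and Cyp2a22 to Gstt1, a glutathione transferase (0.94), Mamdc2 and Pctp. Cyp2b13 was closest to Rgmb (0.94), Klhl13 and Colec11. Cyp2b9 was closest to Asah2 (0.92), Slc22a27 and Tmco4. Cyp2b10 had the weakest best match of the 7, Ube2g1 (0.86), followed by Gypc and Slc25a5.

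Markers of other liver cells moved with the tumour difference. All counts here stand beside 15.8% of all tested genes that fell in MYC and 4.88% in MYC/REG3A tumours (4.41% without mice 2 and 4). Those that rose were 17.4% and 7.58%. Of 12 sinusoidal endothelial markers, 11 fell in MYC tumours and 9 in MYC/REG3A tumours. Their mean level lay between 7.25 and 8.27 in MYC/REG3A tumours against 8.13 and 8.55 in MYC/REG3A non-tumour liver, and between 7.49 and 7.73 in MYC tumours against 8.42 and 9.02 in MYC non-tumour liver. Of 12 Kupffer cell markers 9 fell in each genotype. Stellate markers fell for 5 and 4 of 10, lymphocyte markers for 3 and 3 of 7, and bile duct markers for 3 and 0 of 5, in MYC and in MYC/REG3A tumours. Of 4 adipose markers 2 rose in each. With mice 2 and 4 left out, the counts that fell in MYC/REG3A tumours were 9 sinusoidal, 8 Kupffer, 4 stellate, 3 lymphocyte, 0 bile duct and 2 hepatocyte markers. Of 10 hepatocyte markers 3 fell in MYC tumours and 2 in MYC/REG3A tumours, with medians of -0.16 and -0.23. Their mean level lay between 11.65 and 11.85 in MYC tumours against 11.94 and 12.16 in MYC non-tumour liver, and between 11.73 and 12.17 in MYC/REG3A tumours against 12.16 and 12.24 in MYC/REG3A non-tumour liver. The part of cell composition in the changes of the 7 genes was not tested. Of 15 clock genes 3 fell in MYC tumours and 2 in MYC/REG3A tumours, and of 10 NRF2 targets, a pathway known to act on Cyp2a5, 2 fell and 1 rose in MYC tumours and 1 fell in MYC/REG3A tumours. In MYC tumours both counts that fell were near the 15.8% of all tested genes.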

How the data were processed

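Total RNA of 16 liver samples was hybridised to a mouse Affymetrix 1-colour array, per the labels' protocols. The deposited log2 values are, per the submitters' processing notes, the authors' RMA output from Affymetrix Expression Console 1.4.1; the base of the logarithm was read from the values. RMA makes the arrays' distributions equal, so changes are relative to the other genes. Detection calls were not used; precision is limited by how many arrays there are. Array means lay between 5.43 and 5.47.

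Of 41345 rows, 23521 had 1 gene symbol, 1814 several and 16010 none in the platform annotation. The row of highest mean stood for each gene, and genes above the array median on at least 4 arrays entered the fits (limma 3.58.1, R 4.3.3). Tumour changes were fitted with mouse as a block, since each mouse gave both tissues; deviations of the 2 tissues of a mouse correlated at 0.0963 to 0.325. Genotype differences were fitted on group means without the block. All 16 arrays shared the residual spread, p-values were Benjamini-Hochberg adjusted over all 13555 genes, and 0.05 was the threshold. On simulated data of 13555 genes, genes changed by 1 and by 2 log2 units were recovered in the following shares. The shares were 87% and 95% in MYC tumours, 79% and 97% in MYC/REG3A tumours, and 95% and 99% over both genotypes. They were 55% and 83% for the difference of the change. Between genotypes they were 87% and 96% in non-tumour liver and 82% and 99% in tumours. The simulation drew each array independently, with 200 changed genes, no mouse effect and 1 normal spread per gene in all groups. It thus differs from these data, and the shares are not the power of this design. Nor are they rates for the Cyp2b and Cyp2a genes. Cyp2b9 had an SD of 3.65 in MYC/REG3A tumours and of 0.230 in MYC/REG3A non-tumour liver. Recovery of a gene with so uneven a spread was not tested.

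The members, lists and tests were chosen with earlier results of these data known. Named were the 7 genes, a set of regulators, the 4 genes of lowest p per list at most, and the 3 genes of highest r per member; those picked for the text from these are examples. Replicates are separate mice by label. Alternatives were other filters, scalings, variance models, blocks and left-out mice.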

Additional observations from a re-analysis of the deposited data

Results flagged for a closer look

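Of 42 groups of 4 values examined (levels in each group and changes in each genotype), 4 had 1 value far from the other 3 by Dixon's test at its 95% critical value; chance flags about 1 in 20 groups. Cyp2b13 in the tumour of MYC mouse 2 was at 8.1, above the other MYC tumours. Cyp2a4 in the non-tumour liver of MYC/REG3A mouse 1 was at 10.48, below the other MYC/REG3A livers. Cyp2a22 in the tumour of MYC mouse 4 was at 6.15, below the other MYC tumours. The change of Cyp2a5 in MYC mouse 3 was 0.84, whereas the other MYC mice had lower levels in the tumour.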

How the results depend on the processing

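The 5 calls in MYC tumours and the 5 over both genotypes stayed within 4 to 5 and 5 to 6 when each mouse was left out; with the clock covariate they were 4 and 4, where 25% and 26.4% of all tested genes were called. The 2 calls in MYC/REG3A tumours were 0 with no filter on low values, 0 with no replicate block, 0 with the clock covariate, and 1 each with trend and robust variances, array weights, or only the groups of the comparison; leaving out 1 mouse gave 0 to 3. In tumours, MYC/REG3A minus MYC, leaving out 1 mouse gave 0 to 1 calls. Cyp2b9 in MYC tumours lost its call without MYC mouse 1 (limma adjusted p 0.0634), 3 (0.0688) or 4 (0.133).

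Some uncalled estimates reversed. Without MYC/REG3A mice 2 and 4 the difference of the tumour change was -0.69 for Cyp2b9, 0.60 for Cyp2b10, -0.38 for Cyp2b13, -0.70 for Cyp2a4 and -0.55 for Cyp2a5. The non-tumour difference of Cyp2b13 was then -0.18, and the tumour differences were -0.55 for Cyp2b9, -0.56 for Cyp2b13, -0.69 for Cyp2a4 and -0.11 for Cyp2a5. With the clock covariate the non-tumour difference was -0.15 for Cyp2b9, -0.14 for Cyp2b13, -0.084 for Cyp2a4, -0.21 for Cyp2a12 and -0.0072 for Cyp2a22, and the tumour difference of Cyp2b10 was -0.34. Leaving out 1 mouse gave -0.16 to 0.71 for Cyp2b13 and -0.10 to 0.52 for Cyp2a22 in non-tumour liver, -1.01 to 0.77 for Cyp2b10 in tumours, -0.32 to 1.17 for the change of Cyp2b10 in MYC/REG3A mice, and -0.14 to 1.10 for the difference of the change of Cyp2a5. The causes were not tested. The pairing of tissues by mouse moved no other count by over 1.5 times.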
